A study of Arabidopsis thaliana with 3 samples.

Results

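In *Arabidopsis thaliana* plants that overexpress ABAP1 (ABAP1OE), a group of 40 genes had array ratios below wild type in young siliques. In flower buds and open flowers their ratios were within 1.5-fold of wild type. For 39 of them the ratio rests on 1 probe. Of 19 further probes that list a gene of the group together with other genes, 1 was at or below -0.8 in siliques. The 40 genes were chosen from 5413 genes that had an array probe of their own and a ratio at every stage. A gene was taken where its log2 ratio of ABAP1OE over wild type was above -2.2 and at or below -0.8 in siliques, which is 4.59-fold to 1.74-fold lower, and within 1.5-fold of wild type in both flower stages. These same ratios chose the genes, so they are a description and no test was made on them. *AGL61* met the limits as well, with -0.40 in flower buds and 0.06 in open flowers, and -1.79 in siliques, and was left out of the group by name.

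The ABAP1OE plants carried the *ABAP1* coding sequence behind the constitutive CaMV 35S promoter in the Col-0 ecotype, and the wild-type plants were Col-0. Homozygous ABAP1OE plants were not recovered in the study. RNA from a pool of ABAP1OE tissue and from a pool of wild-type tissue was hybridised together on 2-colour arrays at 3 points, which were stage 13 (flower buds), stage 14 (open flowers) and stages 15 to 16 (siliques), with each genotype in both dyes. The authors combined 3 biological replicates into 1 ratio per probe and stage, so no replicate error, SD or p-value can be given for any value here. In pooled tissue, fewer cells of a type and less transcript per cell cannot be told apart. The bud ratios run as ABAP1OE over wild type by a check on their signs, while the direction in open flowers and siliques rests on the sample labels.

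ABAP1 is an armadillo repeat and BTB domain protein that works with transcription factors to repress target genes, among them genes that license DNA replication. The stages span fertilisation: buds at the point of opening hold mature embryo sacs and pollen, open flowers are being pollinated, and young siliques hold the growing fruit wall, early embryos, endosperm and seed coats. A gene with a low ratio only in siliques can be expressed in any of these tissues or in others of the pool. The ratios do not show which. The paper reports that ABAP1OE siliques were shorter than wild-type ones and held undeveloped seeds. Of 58 marker genes listed for seed, embryo, endosperm, seed coat, fruit wall, pollen and floral organs, 1 had a probe of its own, the pollen gene *PLIM2b*. The tissue content of the silique pools therefore could not be checked with these lists. *PLIM2b* was at -0.98 in flower buds and -0.29 in open flowers, and -0.15 in siliques.

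Log2 ratios at or below -0.8 in siliques were found for 181 of the 5413 genes, or 3.34%. Of these, 69 lay at or below -2.2, a range that begins next to the value of -2.214 at which many empty spots of the array stand. Among the remaining 112, another 23 genes were beyond 1.5-fold in flower buds only, 23 in open flowers only and 25 at both of these stages, and 41 were within it at both. The silique-lower genes are therefore 22.1% of all genes at or below -0.8 in siliques, counted without *AGL61*. With the same numeric limits and *AGL61* counted, 41 genes were lower and 77 higher in siliques only, 29 lower and 34 higher in open flowers only, and 96 lower and 51 higher in flower buds only. The silique ratios also spread more widely over all genes, with a median absolute deviation of 0.21 in siliques and 0.15 at each flower stage.

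**Figure D1:**
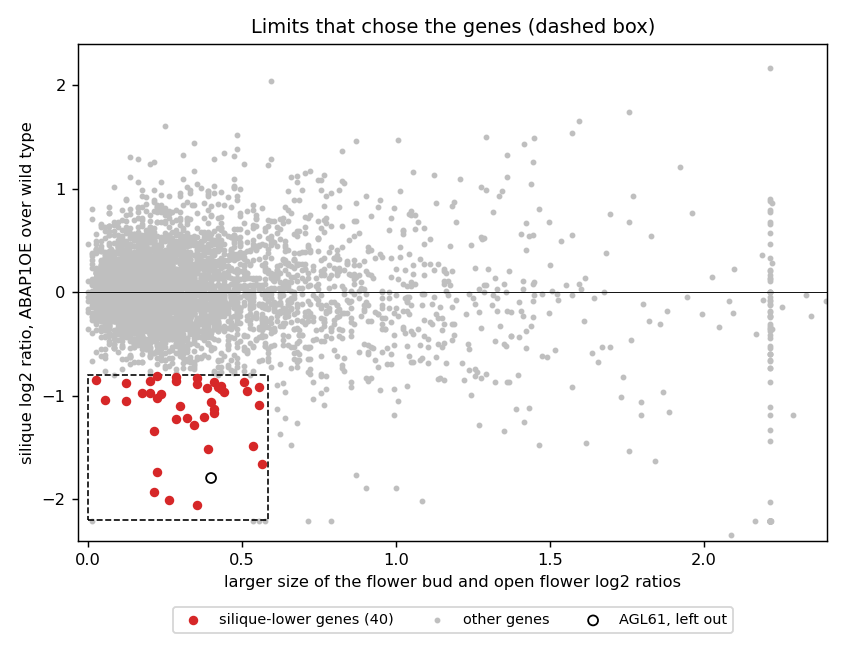
Each point is a gene, placed by the larger size of its flower bud and open flower log2 ratios (x axis) and by its silique log2 ratio of ABAP1OE over wild type (y axis). The dashed box marks the limits that chose the 40 genes (red), the open circle is *AGL61*, and 84 genes lie outside the plotted range of 2.4.

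Within the group the silique log2 ratios ran from -2.05 to -0.81 with a median of -1.0, where the median of all 5413 genes was -0.01. A ratio of -1 or lower, which is 2-fold, was reached by 20 of the 40 genes, against a share of 2.36% over all genes, and this share follows from the choice of the genes. In flower buds 24 of the genes were above 0 and 16 below, between -0.41 and 0.56. Their median there was 0.11, against 0.01 over all genes. In open flowers 15 were above 0, 23 below and 2 at 0, between -0.44 and 0.57. Their median there was -0.10, against -0.01 over all genes. The most frequent order of signs was above 0 in buds and below 0 in open flowers, in 14 genes, while 10 were above 0 at both flower stages, 9 below 0 at both and 5 below 0 in buds and above 0 in open flowers. Only 5 genes were within 0.2 of 0 at both flower stages. These flower-stage counts were not made over all genes, so they cannot be read as a trait of the group. Set against the mean of a gene's own 2 flower stages, the silique ratio differed by -2.22 to -0.54 on the log2 scale, with a median of -1.08.

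**Figure D2:**
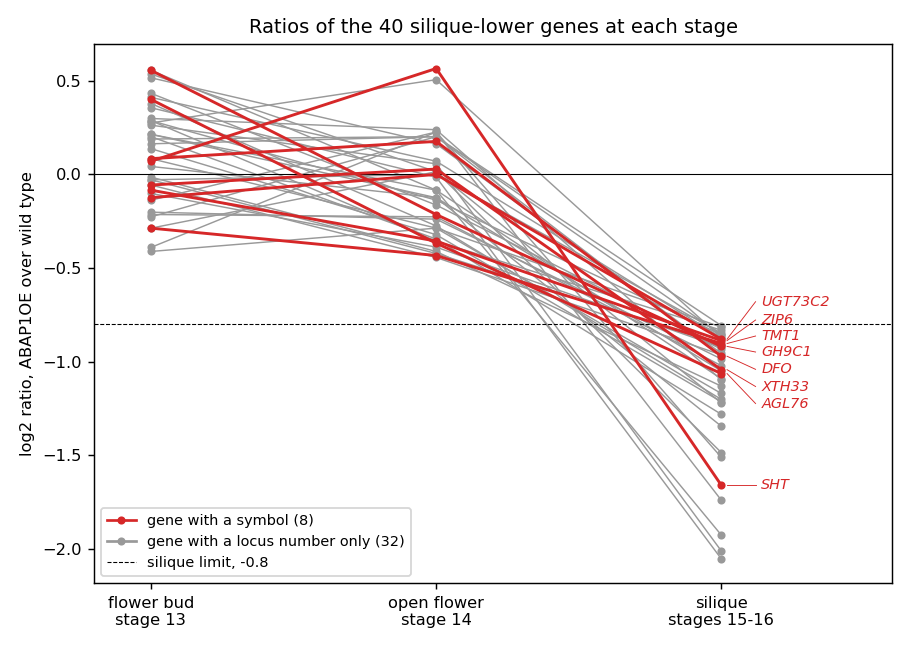
The log2 ratio of ABAP1OE over wild type (y axis) is drawn for each of the 40 genes in flower buds, open flowers and siliques (x axis), with 1 combined ratio per point. The 8 genes with a symbol are in red, and among them *SHT* lies apart at -1.66 in siliques while the others lie between -1.06 and -0.88.

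All 40 genes are annotated as protein coding. A gene symbol was given for 8 of them, and the other 32 carry a locus number only in the annotation used, so no function is stated for those.

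The lowest silique ratio among the genes with a symbol belonged to *SHT* (AT2G19070), the spermidine hydroxycinnamoyl transferase of the anther tapetum, whose products are deposited on the pollen surface. Its log2 ratio was 0.07 in flower buds and 0.57 in open flowers, and -1.66 in siliques, the last being 3.16-fold below wild type. *SHT* thus stood above wild type in open flowers and below it in siliques. Its silique value was 81st from the lowest of all genes measured, and its open flower value was the nearest of the group to the 1.5-fold limit.

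*DFO* (AT1G07060), which is needed to form the DNA double-strand breaks that start meiotic recombination, had log2 ratios of 0.08 in flower buds and 0.18 in open flowers, and -0.97 in siliques. It was 1.96-fold below wild type in siliques and slightly above it at both flower stages. Another measured gene of this process, *SPO11-2*, which encodes a subunit of the enzyme that makes the breaks, was at 0.42, 0.90 and 0.03 at the same stages. *DFO* and *SPO11-2* therefore differed most in siliques, and the difference was not tested.

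*AGL76* (AT5G40120) belongs to the MADS-box transcription factors named AGAMOUS-like. Its log2 ratio was 0.40 in flower buds and -0.37 in open flowers, and -1.06 in siliques. The annotation held 18 genes named AGAMOUS-like by symbol or synonym with an unshared probe. Their silique log2 ratios ranged between -4.19 and 0.86, with -0.08 as the median. Those at or below -0.8 in siliques were *AGL85* at -4.19, *AGL61* at -1.79 and *AGL76*, and *AGL95* at 0.86 was the only one at or above 0.8. The remaining 14 lay between these limits. *AGL76* stood at or below -0.8 through the choice of the genes, so its place in the family is no separate result.

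Cell wall enzymes were represented by *XTH33* (AT1G10550), of the xyloglucan endotransglucosylase/hydrolases that cut and rejoin xyloglucan, and by *GH9C1* (AT1G48930), of the glycosyl hydrolase 9 family of endoglucanases. *XTH33* was at -0.06 in flower buds and 0.03 in open flowers, and -1.04 in siliques, so that it was among the genes closest to wild type at both flower stages. Of the 5 measured genes with a symbol or synonym of its family it was the only one at or below -0.8 in siliques. *XTH33* stood there through the choice of the genes, so this is no separate result. The other measured genes of the family were *XTH26* at -0.38, *XTH21* at -0.15, *XTH20* at 0.36 and *XTH19* at 0.77. They lay on both sides of wild type. *GH9C1* was at 0.56 in flower buds and -0.21 in open flowers, and -0.92 in siliques. Of 6 measured genes with a symbol or synonym of its family, 3 were at or below -0.8 in siliques, and the median of the 6 was -0.64. The share at or below -0.8 over all genes was 3.34%. Both the count and the median include *GH9C1*, which was chosen for its silique ratio, and neither was tested. Of these 3, *GH9C1* alone was within 1.5-fold of wild type at both flower stages, which follows from the limits that chose the genes. *GH9B16* had -0.41 in flower buds and -1.62 in open flowers, and -1.45 in siliques. *GH9B11* was low at every stage, with -0.82 in flower buds and -0.99 in open flowers, and -0.93 in siliques.

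Membrane transporters were represented by *TMT1* (AT1G20840), which loads monosaccharides into the vacuole, and *ZIP6* (AT2G30080), of the ZIP family of metal ion transporters. *TMT1* was at -0.29 in flower buds and -0.43 in open flowers, and -0.90 in siliques, below wild type at every stage. Its closest relatives *TMT2* and *TMT3* had no unshared probe with a ratio. The 5 measured genes named as SWEET sugar exporters, a different family, had silique log2 ratios between -0.77 (*SWEET8*) and 1.11 (*SWEET9*). *ZIP6* was at -0.08 in flower buds and -0.36 in open flowers, and -0.89 in siliques. The other measured gene named for its family, *ZIP9*, was at -0.18 in siliques.

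*UGT73C2* (AT2G36760) encodes a UDP-glycosyltransferase, one of a large family that attaches sugars to small molecules. It was at -0.12 in flower buds and 0 in open flowers, and -0.88 in siliques. Of 20 measured genes with a symbol or synonym of the family, it was lowest in siliques and the only one at or below -0.8. *UGT73C2* stood there through the choice of the genes, so its place in the family is no separate result. The median of the 20 was 0.04 and the highest value was 1.02, for *UGT85A5*. Relatives listed by locus number only were not counted. *UGT73C1*, the direct genome neighbour of *UGT73C2* and a gene of the same subfamily, was at 0.58 in flower buds and 0.43 in open flowers, and 0.23 in siliques.

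**Figure D3:**
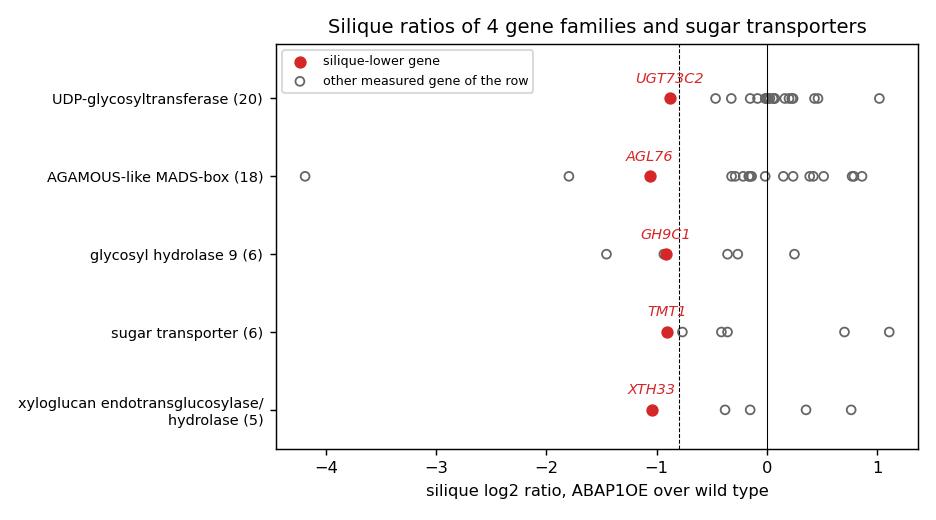
Silique log2 ratios of ABAP1OE over wild type (x axis) are drawn for measured genes of 4 families, recognised by symbol or synonym. A further row is a set of sugar transporters, *TMT1* with 5 SWEET genes (rows, with the number of genes). The silique-lower gene of each row is in red, to the left of the dashed line at -0.8 through the choice of the genes. In the UDP-glycosyltransferase, sugar transporter and xyloglucan endotransglucosylase/hydrolase rows no other gene passes that line. Over all genes measured the share that does is 3.34%.

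The 3 lowest silique ratios of the whole group belonged to genes without a symbol. AT1G57906 was at 0.36 in flower buds and -0.01 in open flowers, and -2.05 in siliques, 4.15-fold below wild type. AT5G15340 was at 0.26 in flower buds and 0.06 in open flowers, and -2.01 in siliques. AT2G32470 was at 0.21 in flower buds and -0.08 in open flowers, and -1.93 in siliques. All 3 were above wild type in buds by less than 1.5-fold. Among the genes within the flower-stage limits they were the nearest above the lower silique limit, and just outside it AT1G33220, AT4G09930 and AT5G61820 stood at -2.214.

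The next 3 genes in order of the silique ratio, besides *SHT*, were AT4G34360 with -0.14 in flower buds and 0.23 in open flowers, and -1.74 in siliques, AT5G65580 with -0.39, 0.23 and -1.51, and AT3G46350 with 0.54, 0.01 and -1.49 at the same stages. AT3G46350 was nearer to the 1.5-fold limit in buds than the other 2. Silique ratios between -1.34 and -1.02 were found for AT5G51420, AT5G09940, AT5G04690, AT1G32030, AT1G05930, AT5G05720, AT4G23970, AT2G04830, AT3G62380, AT5G38670 and AT3G29450, beside *AGL76* and *XTH33*. The highest bud ratio of these was 0.56 in AT3G62380 and the lowest was -0.41 in AT5G05720.

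The other 20 genes were between -1 and -0.8 in siliques, near the threshold. Without a symbol these included AT4G19140, AT2G44390, AT3G23060, AT5G65685, AT1G57850, AT4G26020, AT3G16680, AT3G42160, AT5G55150, AT3G43960 and AT1G73050. AT1G73050 was the gene closest to wild type at the flower stages, with -0.03 in buds and 0 in open flowers, and stood at -0.85 in siliques. Just inside it were AT3G09060 at -0.81, AT1G52560 at -0.82 and AT1G61255 at -0.83, and just outside it AT4G29020, AT3G29152 and AT2G38350 at -0.80 each (unrounded values above -0.8). At the limit for the flower stages, *SHT*, AT3G62380 and *GH9C1* were the last genes inside, and AT5G37760, AT3G17500 and *URE* the first outside. *URE*, the urease gene, had -0.29 in flower buds and 0.62 in open flowers, and -1.37 in siliques, a pattern close to that of *SHT*.

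For 39 of the 40 genes the ratio came from 1 probe, and typical differences between distinct probes of a gene were an SD of 0.26 in siliques (46 genes with several such probes). AT4G29030 was the exception to 1 probe per gene, with 5 rows in the table. Of its rows, 4 held the same values, -0.14 in flower buds and -0.49 in open flowers, and -1.10 in siliques, and 1 held 0.04, 0 and -0.23. The average over rows, -0.92 in siliques, met the limit. Counting the identical rows once gave -0.66, which did not, so this gene belongs to the group only through the repeated rows.

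Probes that list several genes took no part in the choice, and they give other spots on the same arrays for 19 of the genes. Each such probe listed the gene with 1 to 4 others, any of which it may measure. On these 19 probes the silique ratio was at or below -0.8 for 1, and the share over all 7493 probes that list several genes was 3.36%. The exception was the probe of *AGL76*, which also lists *AGL75*, *AGL43* and AT5G40070 and stood at -2.214 at all 3 stages, the value of many empty spots. On the other 18 the silique log2 ratios ran from -0.40 to 0.32 with a median of 0.10, and 11 were above 0 and 7 below. The closest to its own probe was that of AT3G43960, with -0.40 in siliques against -0.86.

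Among the genes with a symbol, the probe that *SHT* shares with *HCT*, a hydroxycinnamoyl transferase of lignin synthesis, and with *GLC* and AT5G57840 was at 0.24 in siliques, against -1.66 on the probe of *SHT* alone. The probe of *TMT1*, *TMT2* and *TMT3* was at 0.08 in siliques, against -0.90 on that of *TMT1* alone. The probe of *GH9C1* with *GH9C2*, *GH9C3* and *GH9B8* was at 0.32 in siliques, against -0.92. The probe of *UGT73C2* with AT2G36770, AT2G36780 and AT5G12890 was at 0.18 in siliques, against -0.88. For these genes the lower silique ratio was thus seen on a single probe only. Whether the shared spots measured the listed gene was not tested. The other 21 genes, *DFO*, *XTH33* and *ZIP6* among them, were on no shared probe.

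**Figure D4:**
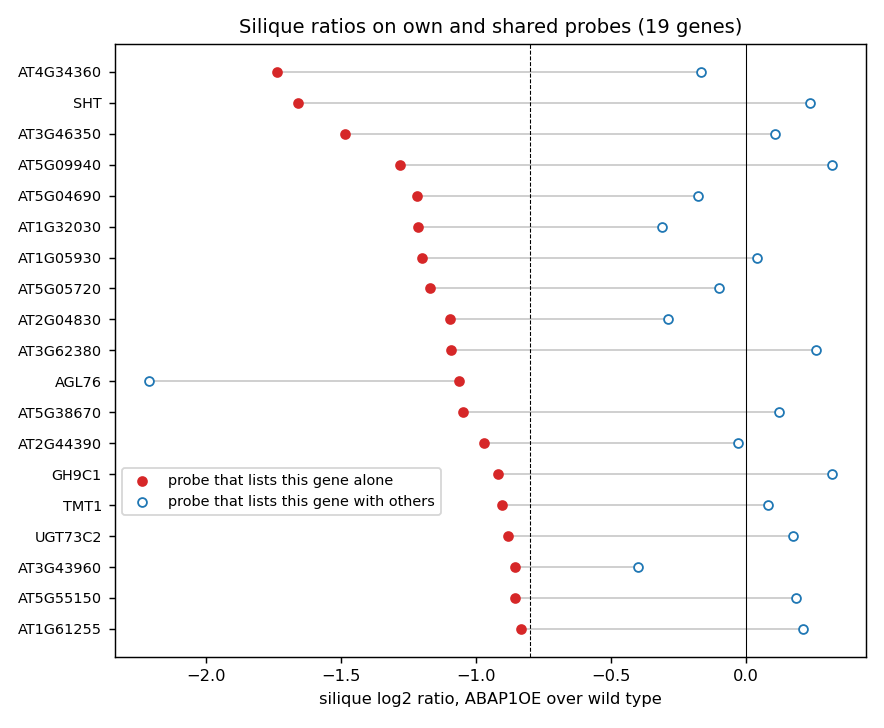
Silique log2 ratios of ABAP1OE over wild type (x axis) are drawn for the 19 genes (rows) on the probe that lists the gene alone (red) and on the probe that lists it with others (open blue). The shared probes lie between -0.40 and 0.32 except that of *AGL76* at -2.214, and the dashed line is the silique limit of -0.8.

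Of the direct genome neighbours of the 40 genes, 10 had an unshared probe, and none of these was itself in the group. The group is 0.739% of all genes measured, so its absence among 10 neighbours is no separate result. The silique log2 ratios of the 10 ranged between -0.98 and 1.33. Their median was -0.32, against -0.01 over all genes. The ratio was at or below -0.8 in siliques for 1 of the 10, against 3.34% of all genes. This was AT1G32020 at -0.98, beside AT1G32030. AT1G32020 was also low in flower buds at -1.01 and in open flowers at -3.38. AT4G29020, next to AT4G29030, was close to the repeated value of its neighbour at the flower stages, with -0.07 in flower buds and -0.42 in open flowers, and -0.80 in siliques. The nearest pair of the group was AT1G57850 and AT1G57906, with 2 genes between them in the annotation, at -0.93 and -2.05 in siliques.

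The same limits were met by 0.778% of transcript probes with 1 gene symbol, 0.707% of those with several and 0.684% of those with none. None of the 36 empty spots met them. Their median was -2.214 in flower buds and in open flowers, outside the flower-stage limits, so many could not meet them whatever their silique ratio. In siliques 15 of the empty spots stood at -2.214 and 24 at or below it, and 3 lay between -2.2 and -0.8, the range in which the silique-lower genes were chosen. None of the 40 genes stood at -2.214 at any stage. Signal intensities were not used here, so how far each spot lay above background is unknown.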

How the data were processed

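The deposited table holds log2 ratios of ABAP1OE over wild type, 1 per probe and stage, made by the authors from 2-colour arrays with 3 biological replicates combined. For background correction, normalization and averaging the paper refers to its Supplementary Information, whose text was not read here. Every deposited ratio under 10-fold corresponded to a fold rounded to 2 decimals (tolerance 0.0005), ratios stop at 6.64 in size, and each column has a median of 0. In flower buds, 46 of 46 genes of the supplementary gene list had the same sign in both sources.

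Of 26545 probes, the platform annotation gave 1 gene symbol for 5784, several for 7497 and none for 13264, the last including 71 control spots. Probes with 1 symbol were named through gene identifiers with the TAIR10.1 RefSeq table (5756 matched), and averaged per locus. The genes to be named were the 20 lowest in siliques, those next to each limit, those with several probes or on shared probes, up to 4 of each gene family, and genome neighbours. The members, families and lists were chosen with earlier results of these data known. The families were taken from the symbols and synonyms of the genes themselves, so relatives listed by locus number only can be missing. They test nothing.

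Because a stage has 1 ratio per probe, genotypes were not tested against each other. Results were recomputed after averaging in shared probes, taking the probe farthest from 0, centring, scaling, leaving out extreme values, and with other limits and the mean. Searches of promoters and protein lengths were planned and not run, since no sequence was used here. Genes with an EMB symbol were also planned as seed markers and are not among the 58 marker genes looked up. The averaging and the limits were run on simulated data whose planted genes lay clear of the limits, with little noise between probes. This checks the code and not how the limits act on measured ratios. Python 3.11.15, numpy 2.4.6, pandas 2.3.3 and matplotlib 3.10.9 were used.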

Additional observations from a re-analysis of the deposited data

Results flagged for a closer look

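Some of the silique-lower genes stood 0.5 or more above wild type on the log2 scale at a flower stage, opposite to siliques. In open flowers these were *SHT* at 0.57 against -1.66 in siliques, and AT3G16680 at 0.51 against -0.87. In flower buds they were AT3G46350 at 0.54 against -1.49, AT3G62380 at 0.56 against -1.09, AT5G65685 at 0.52 against -0.96, and *GH9C1* at 0.56 against -0.92. Each value is 1 combined ratio, so the difference between stages was not tested, and the sign in siliques was set by the choice of the genes.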

How the results depend on the processing

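No paired analysis was possible because replicates had been merged into a single ratio before deposit, and nothing was tested. With shared probes averaged in, 70 genes met the limits, of which 22 were in the group of 40, and 9 of the 40 stayed at least 2-fold lower. Putting the open flower and silique columns on the spread of the bud column gave 19 genes, 14 of them in the group. On that scale 7 of the 40 were at least 2-fold lower, and the median silique ratio of the 40 was -0.72. A silique limit of -1 left 20 genes and a limit of 0.3 at the flower stages left 18, while a limit of 1 at the flower stages gave 67. Counting identical rows once, chosen after the data were seen, left 39. With the probe farthest from 0 the count was 41, with no lower silique limit 50, and with centring or without extreme values 40, where no member's value could change. Every setting keeps the probe value that chose the gene, so the sign of the 40 ratios is no check. With shared probes averaged in, 23 were still at or below -0.8, 21 of which are on no shared probe. Depth of signal is unknown without intensities.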
